A study of Drosophila melanogaster with 8 samples.

Results

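The Lcp genes of Drosophila encode larval cuticle proteins. The 10 members described here are the rows of the deposited tables whose gene name is Lcp1, Lcp2, Lcp3, Lcp4, Lcp65Aa, Lcp65Ac, Lcp65Ae, Lcp65Ag1, Lcp65Ag2 or Lcp65Ag3, out of 15904 rows in all. They lie in separate clusters: Lcp1 to Lcp4 at cytological position 44D on chromosome arm 2R, and 6 of the Lcp65A genes at 65A on 3L. The 4 other rows with a single Lcp name, Lcp65Ad, Lcp65Af and both rows of Lcp65Ab2, also lie at 65A but are not members. Below, the genes of 65A are the 6 members, which do not stand for the whole cluster. All 10 members were tested in all 6 comparisons of the genotypes, so none of the 10 was lost to a filter on low values. That does not hold for the 65A rows left out. Both rows of Lcp65Ab2 were untested throughout, and Lcp65Af was untested in hsromega66 against WT.

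Larval cuticle is made by the epidermis, which secretes chitin fibres and the proteins that bind them at the body surface. The Lcp proteins belong to the large CPR family, named for the Rebers and Riddiford consensus, a stretch that binds chitin. The proteins of 44D are the abundant soluble proteins of the soft cuticle of the last larval instar, and cuticle gene sets are switched on and off at each moult under the control of the moulting hormone ecdysone and of juvenile hormone.

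The RNA came from whole larvae at the wandering stage, the end of the last larval instar, in 4 genotypes, with 2 libraries of 5 pooled larvae each. Wild type (WT) was the Oregon R+ strain. The mutant genotypes were hsromega66 (labelled w1118; Sp/CyO';hsromega66), a near-null allele of the long non-coding RNA hsromega; Hsp90GFP (w1118; Sp/CyO';hsp90GFP), which over-expresses the Hsp90 chaperone Hsp83; and larvae labelled as the recombinant of both (w1118; Sp/CyO';hsp90GFPhsromega66). Every comparison with WT therefore also compares backgrounds, and genotype and background cannot be told apart there. CyO is a balancer of the second chromosome, which carries the 44D cluster; hsromega lies on 3R, the other arm of the chromosome that carries 65A. The sources used here do not give the promoter that drives Hsp90GFP, its insertion site or the second chromosome that the sequenced larvae carried.

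For each gene and genotype the authors deposited 1 value pooled over both libraries, in FPKM, which counts fragments per kilobase of gene in relation to all mapped fragments. No spread between libraries can be given and the read depth is unknown. The group FPKM summed to between 893055 and 1202780. Hsromega was at 236 FPKM in WT larvae, 0.767 in hsromega66 and 273 in Hsp90GFP, and the recombinant libraries had 77.9. That level was 33.0% of WT, missed a call against WT (q = 0.629 in the authors' deposited table) and was called higher than hsromega66, which goes against the label. These libraries are therefore written of below as the labelled recombinant. They were also called lower than all other genotypes at l(2)gl, a cell polarity tumour suppressor on 2L, with 0.0516 FPKM against 59.6 to 109. Hsp83 reached 1616 FPKM in Hsp90GFP against 371 in WT, which was short of a call (q = 0.0538 in the authors' deposited table). Called means that the authors' own q, the p adjusted for multiple tests, was under 0.05. Equal p had equal q in different comparisons. By the authors' test, p = 5e-05 had q = 0.00144 for hsromega in hsromega66 against WT. It had the same q for Lcp1 in the labelled recombinant against hsromega66. The deposited q was therefore not adjusted within each comparison, so a count of calls has no error rate of its own comparison. Ratios are ratios of group FPKM, and their 95% intervals are normal intervals from the standard error that the authors' test statistic implies.

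The clusters were used at very different levels. In WT the 4 genes of 44D summed to 41479.7 FPKM, 4.42% of the summed FPKM of all genes, while the 6 genes of 65A summed to 41.5 FPKM, or 0.00442%. Lcp4 was the highest member in every genotype and ranked between 1 and 3 among all genes. The 44D sum was 51277 FPKM in hsromega66, 40094 in Hsp90GFP and 44588 in the labelled recombinant, and so stayed between 3.71% and 4.92% of all FPKM. The 65A sum was 131 FPKM in hsromega66, 86.4 in Hsp90GFP and 2226 in the labelled recombinant, where it made up 0.185% of all FPKM. Lcp1 to Lcp4 held 99.7% to 99.9% of the FPKM of the 10 members in WT, hsromega66 and Hsp90GFP, and 95.2% in the labelled recombinant. In whole larvae, fewer cells of a type and less RNA per cell cannot be told apart.

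**Figure D1:**
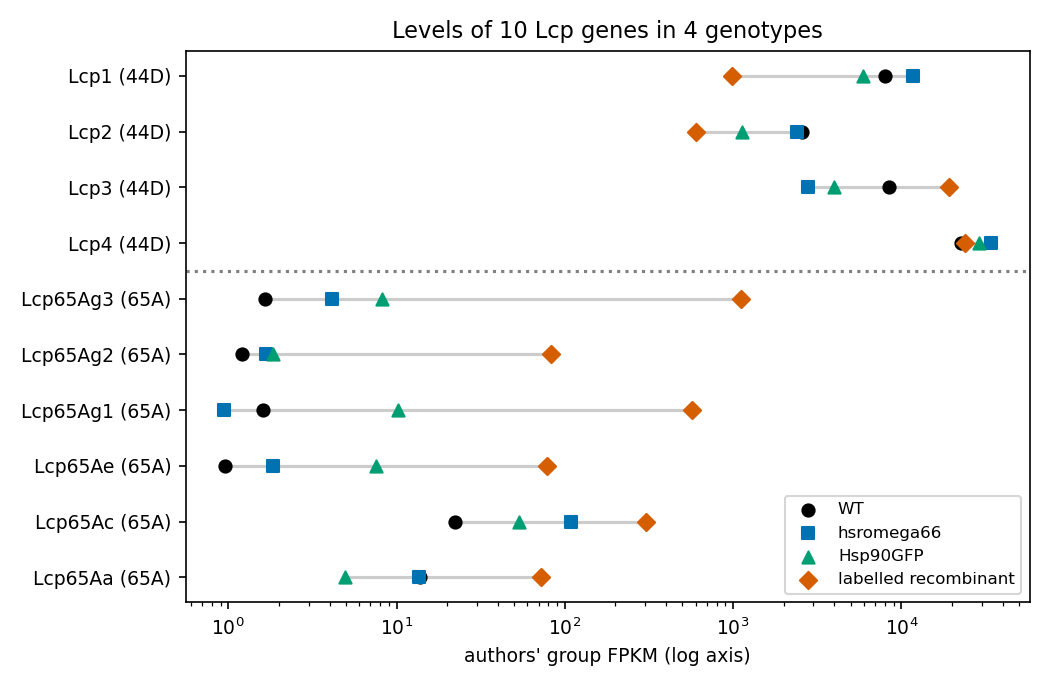
Authors' group FPKM on a log axis (horizontal) of the 10 Lcp genes (rows), with 1 marker per genotype and a grey line from the lowest to the highest. All 6 members at 65A have the labelled recombinant as their highest value, from 72.6 to 1119 FPKM, while Lcp1 and Lcp2 have it as their lowest.

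The plot of levels by genotype shows 3 patterns: Lcp1 and Lcp2 lowest in the labelled recombinant, Lcp3 highest there, and Lcp4 within a narrow range. Among the 44D genes, only Lcp1 and Lcp2 were called in any comparison, and they fell in the labelled recombinant, where the summed FPKM of the cluster lay inside the range of the other genotypes and its share of all FPKM, 3.71%, lay below theirs of 4.42% to 4.92%. Lcp1 (FBgn0002531, dm6 2R 8430115 to 8431243, minus strand, with 3 distinct exons) was at 7980 FPKM in WT larvae, 11789.5 in hsromega66, 5957 in Hsp90GFP and 979 in the labelled recombinant. It was thus low in the labelled recombinant alone. Against WT it fell 8.15-fold (95% interval 2.06 to 32.3; q = 0.0107 in the authors' deposited table). Against hsromega66 it fell 12.04-fold (3.15 to 46.1; q = 0.00144 in the authors' deposited table). Against Hsp90GFP it was 6.09-fold lower, which was not called (1.33 to 27.9; q = 0.0605 in the authors' deposited table). Its rank among all genes was 11 to 23 in the other genotypes and 242 in the labelled recombinant.

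Lcp2 (FBgn0002533, 2R 8433797 to 8434785, minus strand, 4 distinct exons), the neighbour of Lcp1 on the same strand, was at 2559 FPKM in WT larvae, 2408 in hsromega66, 1136 in Hsp90GFP and 604 in the labelled recombinant. The labelled recombinant was again the lowest, with Hsp90GFP between it and the other genotypes. Against WT, Lcp2 fell 4.24-fold (1.23 to 14.7; q = 0.0334 in the authors' deposited table). The ratios to hsromega66 (3.99-fold lower, q = 0.0754) and to Hsp90GFP (1.88-fold lower, q = 0.660 in the authors' deposited table) were not called. Lcp1 exceeded Lcp2 by 3.12 times in WT, 4.90 times in hsromega66 and 5.24 times in Hsp90GFP, against 1.62 times in the labelled recombinant. In the comparison of the labelled recombinant with WT, 2 of the 4 genes of 44D were called lower, where 4.05% of 12656 tested genes were; the median log2 ratio of the 4 was -0.999, against -0.06 over all tested genes. A scaling to equal total FPKM would lower every ratio of that comparison by 0.36 on the log2 scale, and one to the upper quartile by 0.26.

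The other pair of 44D lies on the plus strand and was not called in any comparison. Lcp3 (FBgn0002534, 2R 8435310 to 8436095, with 4 distinct exons) was at 8396.5 FPKM in WT larvae, 2800.2 in hsromega66, 4002 in Hsp90GFP and 19067 in the labelled recombinant. Its highest value was thus in the genotype where Lcp1 and Lcp2 had their lowest. The ratio to WT was 2.27 (0.527 to 9.79; q = 0.475), to hsromega66 6.81 (1.21 to 38.4; q = 0.0730) and to Hsp90GFP 4.76 (0.879 to 25.8; q = 0.130 in the authors' deposited table). These normal intervals are wide, and they include no difference for WT and Hsp90GFP. The authors' Cuffdiff test nonetheless gave an unadjusted p of 0.0149 against Hsp90GFP, smaller than its statistic would give under a normal law. In hsromega66 the level of Lcp3 was 2.999-fold below WT, also not called, with q at 0.362 (in the authors' deposited table).

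Lcp4 (FBgn0002535, 2R 8437647 to 8438495, with 3 distinct exons) was at 22544 FPKM in WT larvae, 34279 in hsromega66, 28998 in Hsp90GFP and 23938 in the labelled recombinant. The highest value was 1.52 times the lowest, the narrowest range of the 10 members, and all 6 q lay between 0.870 and 0.994 in the authors' deposited table. The ratio of the labelled recombinant to WT was 1.06, with an interval from 0.225 to 5.01 that leaves room for a change of several times in either direction, and its log2 value of 0.09 turned to -0.27 and -0.18 with the scalings to equal total and to the upper quartile. Lcp4 made up 54.3% of the 44D sum in WT and 53.7% in the labelled recombinant.

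**Figure D2:**
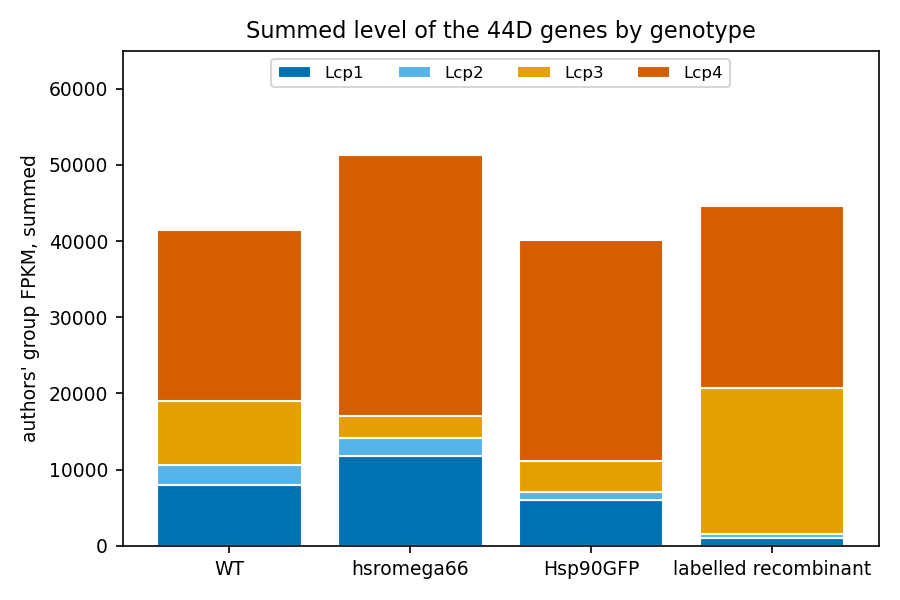
Authors' group FPKM of Lcp1, Lcp2, Lcp3 and Lcp4, stacked, for each genotype (1 pooled value per gene and genotype, so no error bar can be drawn). The total lies between 40094 and 51277 FPKM, and in the labelled recombinant the Lcp3 part is the widest of the 4 genotypes and the Lcp1 part the narrowest.

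In the stacked levels the mix of the 4 transcripts differed more than their sum, of which Lcp4 held the largest part. These are pooled values without a spread, and Lcp3 was not called in any comparison. Lcp1 and Lcp3 were near equal in WT, with 19.2% and 20.2% of the 44D sum. Lcp1 held 23.0% in hsromega66 and 14.9% in Hsp90GFP, where Lcp3 held 5.46% and 9.98%. In the labelled recombinant the share of Lcp1 was 2.20% and that of Lcp3 was 42.8%, so that Lcp3 exceeded Lcp1 by 19.5 times there. Lcp1 and Lcp2 are close copies of each other, as are Lcp3 and Lcp4. The sources used here do not say how reads shared by close copies were counted, so the split within each pair is uncertain.

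All 6 members at 65A had their highest level in the labelled recombinant, and each was called higher there in at least 2 of the 3 comparisons with the other genotypes. The largest ratios were those of Lcp65Ag3 and Lcp65Ag1, which with Lcp65Ag2 form a set of close copies. Lcp65Ag3 (FBgn0086611, dm6 3L 6130386 to 6130989, minus strand, with 2 distinct exons) was at 1.65 FPKM in WT larvae, 4.13 in hsromega66, 8.15 in Hsp90GFP and 1119 in the labelled recombinant. Its rank went from 10401 of all genes in WT to 222 in the labelled recombinant. It rose 678-fold over WT (136 to 3383; q = 0.00908), 271-fold over hsromega66 (66.9 to 1097; q = 0.00144) and 137-fold over Hsp90GFP (34.4 to 548; q = 0.00144 in the authors' deposited table).

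Lcp65Ag1 (FBgn0020638, 3L 6134697 to 6135274, minus strand, with 2 distinct exons) was at 1.60 FPKM in WT larvae, 0.946 in hsromega66, 10.2 in Hsp90GFP and 572 in the labelled recombinant. It rose 357-fold over WT (56.9 to 2235; q = 0.0266) and 55.9-fold over Hsp90GFP (12.7 to 246; q = 0.00144 in the authors' deposited table). Its largest ratio, 605 to hsromega66, was not called (81.1 to 4509; q = 0.0972 in the authors' deposited table), although the interval lies far above 1. The p for that ratio, 0.0099 in the authors' deposited table, is larger than its test statistic would give under a normal law. The same held against WT for Lcp65Ag3 (p = 0.00045), Lcp65Ag1 (p = 0.00175), Lcp65Ag2 (p = 0.00225) and Lcp65Ae (p = 0.01245 in the authors' deposited table), so the normal intervals printed for these genes are narrower than the authors' p values allow. Against WT the p was instead smaller than a normal law gives for Lcp1 (p = 0.00055), Lcp2 (p = 0.00235) and Lcp65Aa (p = 0.00055 in the authors' deposited table). The normal intervals of Lcp1, Lcp2 and Lcp65Aa there are therefore wider than those p values call for.

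Lcp65Ag2 (FBgn0020637, 3L 6132990 to 6133593, minus strand, 2 distinct exons), which lies between these copies, was lower than both in the labelled recombinant. Its levels were 1.199 FPKM in WT larvae, 1.68 in hsromega66, 1.86 in Hsp90GFP and 83.0 in the labelled recombinant. It rose 69.2-fold over WT (13.5 to 355; q = 0.0323), 49.5-fold over hsromega66 (10.5 to 234; q = 0.00472) and 44.7-fold over Hsp90GFP (9.38 to 214; q = 0.00372 in the authors' deposited table). In the labelled recombinant Lcp65Ag3 exceeded Lcp65Ag2 by 13.5 times and Lcp65Ag1 by 1.958 times. In WT the 3 copies lay within 1.38 times of each other, all below 2 FPKM. How reads were split among these close copies is not stated, so the level and ratio of each single copy are uncertain.

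Lcp65Ae (FBgn0020640, 3L 6137583 to 6138118, minus strand, with 2 distinct exons) was at 0.961 FPKM in WT larvae, 1.85 in hsromega66, 7.60 in Hsp90GFP and 77.9 in the labelled recombinant. Its level in Hsp90GFP lay between the low genotypes and the labelled recombinant. It rose 42.1-fold over hsromega66 (6.89 to 257; q = 0.0367) and 10.2-fold over Hsp90GFP (2.26 to 46.4; q = 0.00264 in the authors' deposited table). The ratio of 81.1 to WT was not called (11.98 to 549; q = 0.115 in the authors' deposited table).

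Lcp65Ac and Lcp65Aa, at the other end of the cluster and on the plus strand, were the members of 65A with the highest levels in WT. Their ratios to WT and to hsromega66 were smaller than those of the other members of 65A. Against Hsp90GFP the ratio of Lcp65Aa, 14.7, exceeded that of Lcp65Ae, 10.2. Lcp65Ac (FBgn0020642, 3L 6144819 to 6145393, with 2 distinct exons) was at 22.2 FPKM in WT larvae, 108 in hsromega66, 53.7 in Hsp90GFP and 302 in the labelled recombinant. All 3 mutant genotypes thus lay above WT. It rose 13.6-fold in the labelled recombinant over WT (4.09 to 45.1; q = 0.00144) and 5.63-fold over Hsp90GFP (1.74 to 18.2; q = 0.00565 in the authors' deposited table), while the ratio of 2.79 to hsromega66 was not called, with q at 0.0914 (in the authors' deposited table). Lcp65Aa (FBgn0020645, 3L 6151304 to 6151803, 1 exon) was at 13.8 FPKM in WT larvae, 13.6 in hsromega66, 4.95 in Hsp90GFP and 72.6 in the labelled recombinant. It is the member of 65A for which Hsp90GFP was lowest. It rose 5.24-fold over WT (1.62 to 17.0; q = 0.0107), 5.32-fold over hsromega66 (1.60 to 17.7; q = 0.00372) and 14.7-fold over Hsp90GFP (3.58 to 59.98; q = 0.00264 in the authors' deposited table).

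**Figure D3:**
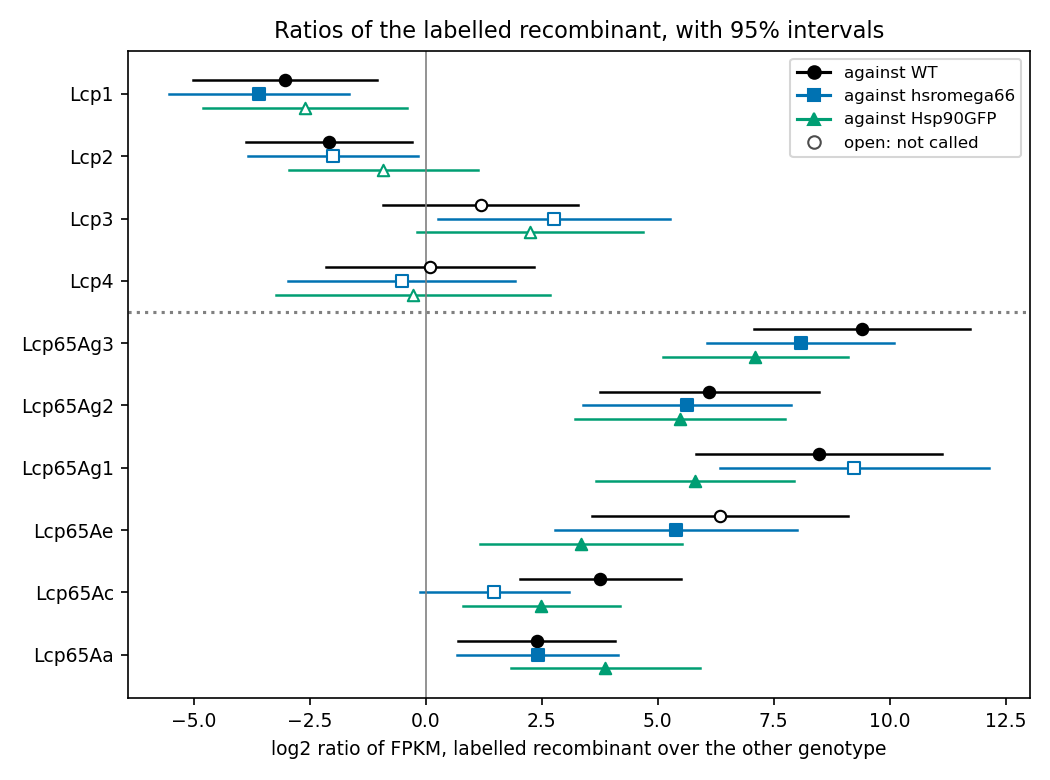
Log2 ratio of FPKM (horizontal) of the labelled recombinant to WT, hsromega66 and Hsp90GFP for each of the 10 genes, with 95% intervals from the authors' test statistic; filled markers are called, open ones are not, and the dotted line parts 44D (above) from 65A (below). Every 65A point lies above 0, from 1.48 to 9.41, while the 44D points lie on both sides, from -3.59 to 2.77.

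The plot of ratios shows 65A above 0 in all 3 comparisons of the labelled recombinant and 44D on both sides of 0. The ranges of the clusters overlapped in the comparison with hsromega66, where the log2 ratio was 2.77 for Lcp3 and 1.48 for Lcp65Ac. Against WT, 5 of 6 genes of 65A were called higher, where 4.61% of 12656 tested genes were, with a median log2 ratio of 6.23 against -0.06 over all tested genes. Against hsromega66, 4 of 6 were called higher (3.68% of 12488 tested genes) with a median of 5.51 against -0.01, and 1 of the 4 genes of 44D was called lower (3.63%). Against Hsp90GFP, 6 of 6 were called higher (3.51% of 12605 tested genes) with a median of 4.68 against -0.05. In that comparison, where 6.66% of tested genes were called in either direction, Cuffdiff called none of the 4 genes of 44D, with 2 at an unadjusted p under 0.05 and none by a z test on the implied errors. No share of all genes at that unadjusted level is given here, so the 2 cannot be read as an excess. These comparisons share the values of the labelled recombinant and so are not independent. Of the 7 calls against WT, 4 were left when the deposited p values were adjusted over all 6 tables, which lost Lcp2, Lcp65Ag2 and Lcp65Ag1. The smaller median with a pseudocount of 1, at 5.29 against WT, reflects levels near or below 1 FPKM in WT.

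Between the other genotypes few Lcp genes were called. In hsromega66 against WT, 1 of the 10 members was called higher, where 0.862% of 12523 tested genes were. It was Lcp65Ac, which rose 4.87-fold (1.501 to 15.8; q = 0.0137 in the authors' deposited table). That call was lost in 4 of the 5 alternatives tried, with an adjusted p of 0.109 when the deposited p values were adjusted within their own table. The median log2 ratio in this comparison was 0.24 for 44D and 0.71 for 65A, against -0.04 over all tested genes.

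In Hsp90GFP against WT, Cuffdiff called none of the 10 members, where 1.09% of 12621 tested genes were called. A z test on the implied errors also called none, and 3 members had an unadjusted p under 0.05, all in 65A. Their ratios were 4.94 for Lcp65Ag3 (0.944 to 25.9; q = 0.163), 6.38 for Lcp65Ag1 (1.07 to 38.1; q = 0.161) and 7.92 for Lcp65Ae (1.03 to 60.7; q = 0.211 in the authors' deposited table). The remaining member on the minus strand, Lcp65Ag2, was at 1.86 FPKM against 1.199. The median log2 ratio was -0.75 for 44D and 1.79 for 65A, against -0.05 over all tested genes. Hsp90GFP against hsromega66 gave no call among the 10 members either (0.997% of 12534 tested genes were called), and 1 member, Lcp65Ag1, had an unadjusted p under 0.05 (ratio 10.8, q = 0.139 in the authors' deposited table). The shares of all genes at such an unadjusted p are not given here, so the counts of members at that level cannot be read as an excess.

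The 4 genotypes were set out as a 2 by 2 design, so the ratio of the labelled recombinant to Hsp90GFP was compared with that of hsromega66 to WT, which shares no group with it. The label of the recombinant is contradicted by its hsromega level, so the difference describes these libraries. None of the 10 members passed a two-sided z test with Benjamini-Hochberg adjustment over 11893 genes, of which 0.471% passed; 6 members had an unadjusted p under 0.05. The share of all genes at that unadjusted level is not given here, so the 6 cannot be read as an excess. The largest differences on the log2 scale were 6.57 for Lcp65Ag1 (SE 1.98, adjusted p = 0.139) and 5.78 for Lcp65Ag3 (SE 1.60, adjusted p = 0.0581) by that z test on the authors' statistics. For Lcp1 the difference was -3.17 (SE 1.61, adjusted p = 0.964) and for Lcp3 it was 3.84 (SE 1.74, adjusted p = 0.760) by the same z test on the authors' statistics. Lcp65Ac had a difference of 0.21 (SE 1.22); it was also high in hsromega66.

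The 65A members share their 21.4 kb with other cuticle genes, whose levels did not all follow theirs. Lcp65Af, between Lcp65Ag1 and Lcp65Ae, was at 0.399 FPKM in WT larvae, 0.308 in hsromega66, 0.985 in Hsp90GFP and 14.3 in the labelled recombinant, with no call (q = 0.346 against WT and 0.0661 against Hsp90GFP in the authors' deposited table), though the z test on the implied errors called it higher than WT. Lcp65Ad, beside Lcp65Ac, had its highest level in WT, at 4.601 FPKM against 1.70, 0.643 and 0.859, with no call. Cpr65Au lies between Lcp65Ag3 and Lcp65Ag2, and its levels were 11.3, 14.4, 7.07 and 12.4 FPKM in WT, hsromega66, Hsp90GFP and the labelled recombinant. Cpr65Aw was at 73.3, 68.2, 53.6 and 68.3 FPKM in the same order. Neither of these neighbours was called in any comparison, though genes on both sides of Cpr65Au rose.

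Cpr65Av, the neighbour of Lcp65Ae, followed another pattern. It was at 35.3 FPKM in WT larvae, 2.36 in hsromega66, 55.4 in Hsp90GFP and 11.9 in the labelled recombinant. It fell in hsromega66 against WT (q = 0.00372) and was called lower in the labelled recombinant than in Hsp90GFP (q = 0.0230) but higher than in hsromega66 (q = 0.0468 in the authors' deposited table). Within the span, both rows named Lcp65Ab2 and both rows that merge Cpr65Ax1 with Cpr65Ax2 were listed at 0 in every genotype. These are close copies, so their level is uncertain. No row other than the 4 members lies within the 44D span.

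**Figure D4:**
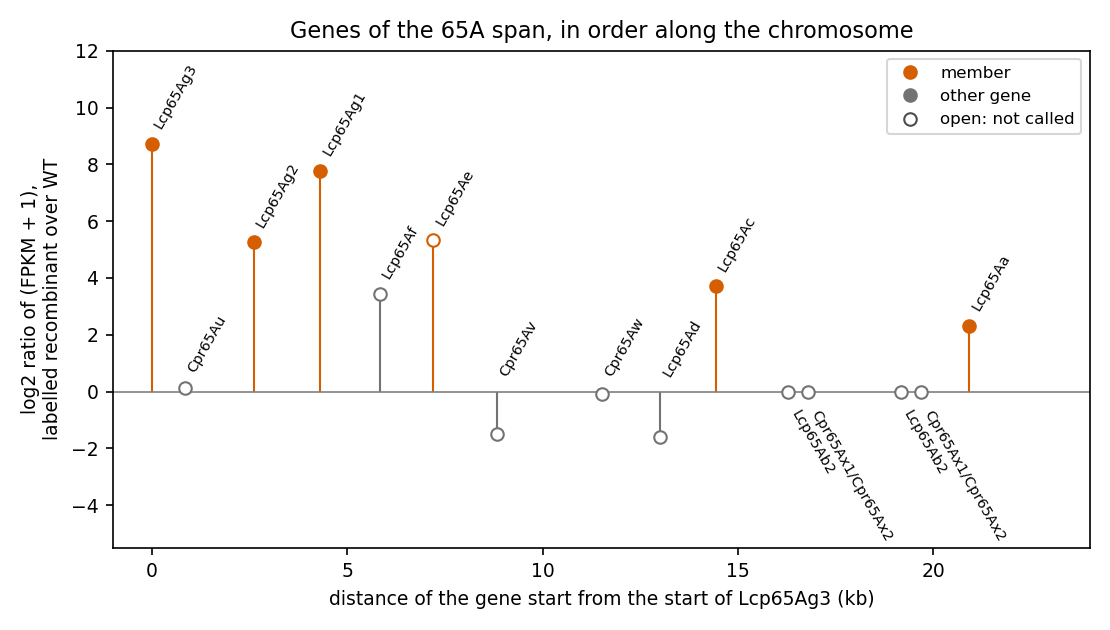
Log2 ratio of (FPKM + 1) of the labelled recombinant to WT (vertical) for each gene row of the 65A span, by the distance of its start from that of Lcp65Ag3 in kb (horizontal); orange marks the members, filled markers are called. The Lcp65Ag and Lcp65Ae genes on the left have the highest values, and Cpr65Au (among them) and Cpr65Aw (further right) lie near 0, as do 4 rows listed at 0 in both groups.

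The plot along the span shows that Lcp65Ag2, Lcp65Ag1, Lcp65Af and Lcp65Ae follow each other with ratios above WT, while Cpr65Av, Cpr65Aw and Lcp65Ad next to them lie below WT or near 0, with no call against WT. To find genes with a like pattern, centred log2(FPKM + 1) profiles over the 4 genotypes were compared by Euclidean distance across 8330 rows. The nearest to the mean profile of the 65A members were CG32603 (distance 0.484), Nplp2 (0.520), Cpr47Ec (0.544), TwdlP (0.558) and CG5278 (0.588). Cpr47Ec and TwdlP are named as cuticle proteins of the CPR and Tweedle families. Nplp2 was at 191 FPKM in WT larvae, 361 in hsromega66, 523 in Hsp90GFP and 7369 in the labelled recombinant. The 6 members themselves lay 0.483 to 2.59 from their mean. The mean profile of 44D was nearest to CG4250, Tsp96F, LBR, CG43072 and Snx3 (0.0585 to 0.0985), but the 4 members lay 0.816 to 2.64 from that mean, which thus describes none of them well.

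Other cuticle gene families did not all rise with the 65A genes in the labelled recombinant. Of 68 Cpr genes, the larger group of the same family, 44 were tested against WT, and 11 rose and 8 fell, where 4.61% of all tested genes rose and 4.05% fell, with a median log2(FPKM + 1) ratio of 0.05 against -0.07 over all tested genes. Cpr47Eg rose from 1.58 to 2496 FPKM, Cpr67Fa2 from 5.80 to 1097 and Cpr47Ec from 9.19 to 688, while Cpr78E fell from 2392 to 2.84. Against WT, 1 Cpr gene rose and 1 fell of 43 tested in hsromega66 (0.862% and 0.375% of all tested genes), and 2 rose of 44 in Hsp90GFP (0.618%). Single Cpr genes in the labelled recombinant thus moved as widely as the Lcp65A genes, in both directions. Of 14 pupal and adult cuticle genes 9 were tested and 1 rose, and of 24 Tweedle genes 10 were tested and 1 rose, beside the same 4.61% of all tested genes. Their median log2(FPKM + 1) ratios were 0.88 and 1.21, above the -0.07 over all tested genes. The Tweedle list summed to 22.8 FPKM in WT and 167 in the labelled recombinant. The pupal and adult list summed to 553 FPKM in WT and 74.4 in the labelled recombinant, and most of both sums was the pupal cuticle protein gene Pcp, at 540 and 44.3 FPKM, which was called lower against hsromega66 but not against WT. The genes called higher were Ccp84Ad, which was listed at 0 in WT and had 1.32 FPKM, and TwdlL, likewise listed at 0 and then at 2.22.

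Among 10 genes of chitin synthesis and cuticle assembly with a row of their own, 3 rose and 1 fell in the labelled recombinant against WT, where 4.61% and 4.05% of all tested genes did. The gene mmy, which makes the sugar nucleotide used for chitin, rose from 29.7 to 106 FPKM. The chitin deacetylase gene verm rose from 65.5 to 288 and obst-A, a chitin-binding organiser of the cuticle, from 54.98 to 248. The chitinase gene Cht5 fell from 20.3 to 3.70. By the z test none of these 4 passed. None of these 10 genes was called by Cuffdiff in hsromega66 or Hsp90GFP against WT, with none at an unadjusted p under 0.05 and none by the z test. Few genes of any kind were called there. Of all tested genes, 0.862% were called higher and 0.375% lower in hsromega66, and 1.09% in either direction in Hsp90GFP.

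Genes that mark the wandering stage and other tissues also differed in the labelled recombinant, beside the change of the Lcp genes. Of 13 tested genes of the moulting hormone response, 5 fell and none rose against WT, where 4.05% of all tested genes fell and 4.61% rose. The summed level of the 13 genes was 72.02 FPKM against 358 to 482 in the other genotypes. ImpE2 fell from 152 to 0.493 FPKM and Eip74EF, an early hormone-induced transcription factor gene, from 30.3 to 4.29. The gene ftz-f1 of the same list went the other way, with 2.58 FPKM in WT larvae, 2.55 in hsromega66, 4.15 in Hsp90GFP and 10.04 in the labelled recombinant. It was called higher there than in hsromega66, but not against WT. Of 10 late larval gland and fat body genes, 4 fell and none rose (beside the same shares of all tested genes), with a summed level of 16755 FPKM against 57074 to 78669. Their median log2(FPKM + 1) ratio to WT was -8.79, against -0.07 over all tested genes. The glue gene Sgs7 fell from 33244 to 21.2 FPKM, and the serum protein gene Lsp2 from 10998 to 178. The serum protein genes of the other kind were not called, with Lsp1alpha at 5287 FPKM (6652 in WT) and Lsp1beta at 11259 (8845 in WT). The glue genes without a call against WT, Sgs1, Sgs3, Sgs4 and Sgs8, were at 0.0166 to 1.01 FPKM, where WT had 80.6 to 3623. No listed glue gene was at 0. The part of stage or of these tissues in the Lcp values was not tested.

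Markers of the epidermis, the source of cuticle, gave no call by the authors' test. None of 7 tested epidermal matrix and epidermis genes was called in the labelled recombinant against WT by Cuffdiff. Of all tested genes, 4.61% were called higher there and 4.05% lower. Of the 7 genes, 2 had an unadjusted p under 0.05, a level for which no share of all genes is given here. The list of these genes summed to 78.4 FPKM in the labelled recombinant against 94.9 to 115.45 elsewhere. The z test called 2 of them lower; the widest ratios were those of the apical matrix genes nyo, at 0.0911 FPKM against 5.09 in WT, and mey, at 0.0904 against 2.45. The epidermal transcription factor gene grh was at 24.6 FPKM in WT larvae, 18.0 in hsromega66, 23.96 in Hsp90GFP and 19.96 in the labelled recombinant. The gene dy was the member listed at 0, in the labelled recombinant only, and it was at 0.150 FPKM in WT. The summed level of the tracheal genes with a row of their own, Gasp and sas, was 103 FPKM in WT larvae, 140 in hsromega66, 143 in Hsp90GFP and 223 in the labelled recombinant, with no call. The 6 imaginal disc genes summed to 36.9, 30.2, 31.5 and 21.0 FPKM in the same order, also with no call. At the shares of all tested genes that were called, lists this short would often hold no call. The part of these tissues in the Lcp values was not tested.

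**Figure D5:**
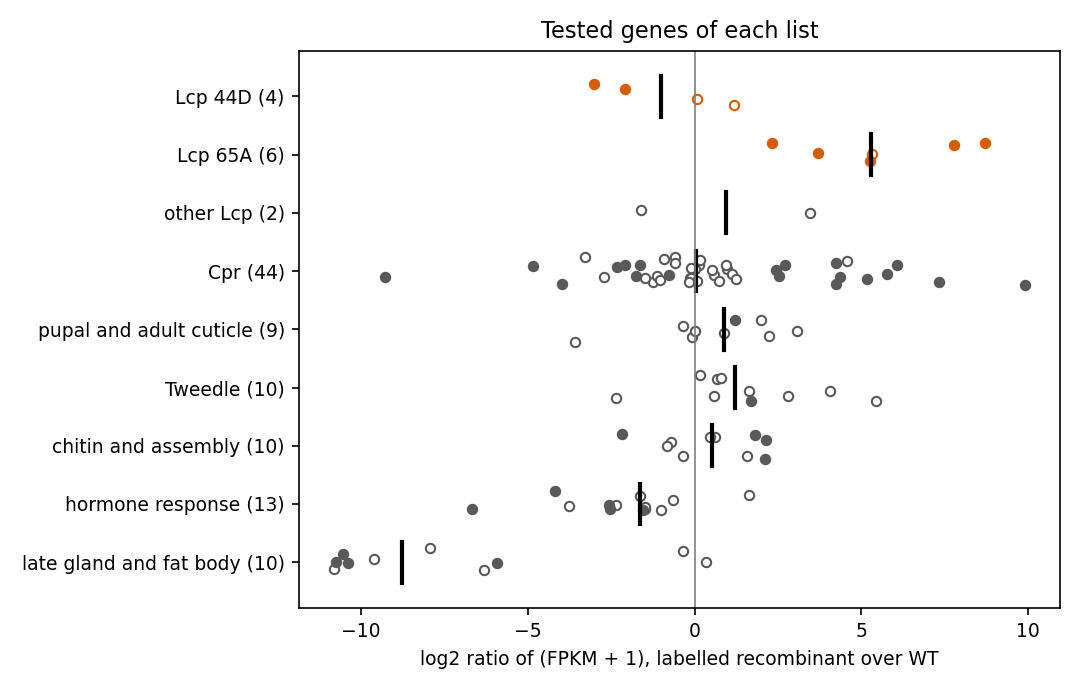
Log2 ratio of (FPKM + 1) of the labelled recombinant to WT (horizontal) for every tested gene of each list (rows, with the number tested); filled points are called, the black bar is the list's median, and vertical scatter within a row has no meaning. The 65A members lie between 2.31 and 8.72 with a median of 5.29, while the Cpr genes spread on both sides of 0 with a median of 0.05.

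The plot of lists places the 65A members on the high side of the other cuticle families and 44D on both sides of 0 with a median of -0.998. The medians of the gland and fat body list and of the hormone response list lie on the low side.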

How the data were processed

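Per the labels' protocols, each library held total RNA of 5 pooled whole larvae, made with a stranded kit whose ribosomal depletion is designed for human, mouse and rat RNA, and was sequenced as 50 bp paired reads, 8 libraries a lane, each over 2 lanes. Cuffdiff 2.1.1, Cufflinks, TopHat and Bowtie are named in the submitters' processing notes, with the build dm6; the sources used here give no other version. Nothing says that libraries of a genotype came from separate crosses. The 6 deposited tables hold, per the file headers, 1 FPKM per gene and group, the authors' test statistic (a score) and the authors' p-value and q-value. The deposited column of log2 folds was not used, since some cells hold no number. A ribosomal depletion keeps RNA without poly(A), and FPKM shares move with a few very high genes.

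Calls are the authors' q under 0.05, equal to their own flag in all 6 tables. The standard error of a log2 ratio is the ratio divided by the deposited statistic. The genes named are the 10 members, rows within either cluster's span and the 5 nearest profiles per cluster (at least 5 FPKM in a group). Also named are up to 4 called genes per list, and hsromega, Hsp83 and l(2)gl. Pcp, ftz-f1, Sgs1, Sgs3, Sgs4, Sgs8, Lsp1alpha, Lsp1beta, grh, nyo, mey, dy, Gasp, sas and the row of Lcp9 were chosen after their values were seen. The members and lists were chosen with earlier results of these data known. Coordinates, counted from 1, equal those of the Ensembl release 115 annotation for all 10 members. Alternatives were a q under 0.01, other adjustments, a filter at 1 FPKM, a z test, pseudocounts of 1 and 0.1, and 3 scalings. The tools were matplotlib 3.10.9, scipy 1.17.1, pandas 2.3.3 and numpy 2.4.6 under Python 3.11.15. The non-additive z test was checked on data simulated with normal errors of the implied size. That check takes the normal law as given and so cannot test it, and the authors' own test was not simulated.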

Additional observations from a re-analysis of the deposited data

How the results depend on the processing

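Of the 5 alternatives to the call, the count of members in hsromega66 against WT went from 1 to 0 in 4: at q under 0.01, with the deposited p adjusted within the table, with a filter at 1 FPKM, and with the z test. It stayed at 1 with an adjustment over the 6 tables. The count in the labelled recombinant against WT went from 7 to 2 at q under 0.01 (Lcp65Ag3 and Lcp65Ac) and to 4 over the 6 tables, where Lcp2, Lcp65Ag2 and Lcp65Ag1 had adjusted p of 0.0627, 0.0607 and 0.0501; the z test gave 6, without Lcp2 and Lcp65Aa and with Lcp65Ae. Counts were 4 or 5 against hsromega66, and 6 against Hsp90GFP except 4 by the z test, while the counts of 0 stayed at 0. Among recomputed log2 ratios 298 kept their direction and 2 reversed, both of Lcp4 against WT (-0.27 with equal totals and -0.18 with the upper quartile). With a pseudocount of 1 the 65A median went from 6.23 to 5.29 against WT and from 5.51 to 4.88 against hsromega66. In the labelled recombinant against WT the z test lowered the Cpr genes that fell from 8 to 4 and raised the late gland and fat body genes that fell from 4 to 7; the chitin and assembly genes that rose went from 3 to 1 at q under 0.01 and to 0 by the z test. No member passed the non-additive test in any setting. No paired analysis was possible because the files hold 1 value per group, and leaving out a replicate was not run for the same reason; the precision of each pooled FPKM at the depth sequenced is therefore unknown.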

Other observations

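A further gene of the Lcp name, Lcp9, shares its row with egg, a histone methyltransferase gene, so its level cannot be given alone. The merged row stood at 634 FPKM in WT larvae, 1823 in hsromega66, 1599 in Hsp90GFP and 3550 in the labelled recombinant. It was called higher in the labelled recombinant than in WT (q = 0.0278 in the authors' deposited table) and in no other comparison. All 3 mutant genotypes lay above WT for this row, the order also seen for Lcp65Ac.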
